A study of Mus musculus with 12 samples.

Results

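The genes described here are 9 transcription factors of the myeloid lineage: Sfpi1 (the older symbol of Spi1, which encodes PU.1), Cebpa, Cebpb, Irf4, Irf8, Zeb2, Id2, Klf4 and Maf. They were taken by symbol from the 23420 gene symbols of the deposited table, and all 9 had an entry. RNA came from the CD45+CD3-CD11b+MHCII+ fraction of sorted mouse epidermal cells, at 100 cells per tube, and 3-prime ends of transcripts were counted with molecular barcodes. The 4 groups, with 3 libraries each, were Cbfβ2 knockout (KO) and wild-type (wt) mice at day 5 after birth (P5) and KO and wt mice at 1.5 months (1.5M). Cbfβ2 is a splice form of the core-binding factor β subunit, the partner protein of the Runx transcription factors. The labels name no strain, Cre driver or conditional allele. They call the 3 libraries of a group separate preparations and do not state separate animals, so p-values measure the spread between these preparations, which may be technical.

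As background, PU.1 is the Ets-family factor that myeloid cells need from their progenitors onward, and C/EBPα acts with it in granulocyte and monocyte progenitors. IRF8 and IRF4 bind DNA together with PU.1 and are known for the conventional dendritic cells of the cDC1 and cDC2 types. ID2 blocks the DNA binding of E proteins and is needed for epidermal Langerhans cells, which take up and present antigen there. ZEB2, a zinc-finger repressor, and ID2 are known as opposing factors in dendritic cell development. KLF4 takes part in monocyte differentiation and also in the barrier programme of keratinocytes, and c-Maf, the product of Maf, is a macrophage factor.

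Values are molecule counts that were scaled to the same total of 37092 in every library, called scaled counts below. Libraries held 30913 to 51001 molecules in P5 KO, 34192 to 52208 in P5 wt, 74620 to 77420 in 1.5M KO and 40254 to 51848 in 1.5M wt. The members lay between 0 and 29.2 scaled counts in a library, so each value rests on few molecules, and 3 molecules over a group, the floor set for a gene listed at 0 there, come to 0.907 scaled counts in P5 KO, 0.895 in P5 wt, 0.485 in 1.5M KO and 0.831 in 1.5M wt (counting error only). Cbfb, the targeted gene, had 1.45 to 3.63 scaled counts in P5 KO against 3.91 to 4.97 in P5 wt, and 0.994 to 2.40 in 1.5M KO against 7.15 to 13.8 in 1.5M wt. All KO libraries were below all wt libraries of their age, although molecules counted at the 3-prime end do not separate the splice forms of Cbfb. The gate genes Ptprc, Itgam and H2-Ab1 were detected in all 12 libraries, and Cd3e and Cd3g in none. Cd207, which encodes Langerin and marks mature Langerhans cells, had 0 in every P5 KO library against 0.710 to 2.93 in P5 wt, and 18.7 to 24.9 in 1.5M KO against 189 to 252 in 1.5M wt. In RNA from pools of cells, fewer cells of a type and less RNA per cell cannot be told apart.

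All 9 are protein-coding genes in the GENCODE annotation of GRCm38. On the plus strand lie Sfpi1 (chr2:91082390-91115756), Cebpa (chr7:35119293-35121928), Cebpb (chr2:167688915-167690418), Irf4 (chr13:30749226-30766976) and Irf8 (chr8:120736358-120756694). On the minus strand lie Zeb2 (chr2:44983632-45117395), Id2 (chr12:25093799-25097140), Klf4 (chr4:55527143-55532466) and Maf (chr8:115682942-115707794). Of the 9 members, 7 had a promoter window in the RefSeq table for GRCm38.p6; Sfpi1 and Maf had none there. The windows of Cebpa, Zeb2 (the first of its listed start sites) and Klf4 are shown because these genes were higher in every KO library than in every wt library at both ages. Each covers the 250 bases before the start site, 5-prime to 3-prime on the gene's strand, with every CG dinucleotide in capitals. The positions are chr7:35119043-35119292 on the plus strand for Cebpa, chr2:45117443-45117692 on the minus strand for Zeb2 and chr4:55532476-55532725 on the minus strand for Klf4.
Cebpa: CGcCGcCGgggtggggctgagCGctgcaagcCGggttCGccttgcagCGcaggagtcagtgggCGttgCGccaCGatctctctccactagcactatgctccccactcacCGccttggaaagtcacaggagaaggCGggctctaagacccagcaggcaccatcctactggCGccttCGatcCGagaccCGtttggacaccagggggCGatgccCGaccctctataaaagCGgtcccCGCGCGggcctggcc
Zeb2: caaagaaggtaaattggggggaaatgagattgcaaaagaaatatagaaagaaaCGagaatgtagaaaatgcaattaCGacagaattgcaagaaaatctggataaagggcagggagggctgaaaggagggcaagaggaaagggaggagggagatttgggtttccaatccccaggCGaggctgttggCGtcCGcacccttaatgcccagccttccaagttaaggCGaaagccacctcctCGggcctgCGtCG
Klf4: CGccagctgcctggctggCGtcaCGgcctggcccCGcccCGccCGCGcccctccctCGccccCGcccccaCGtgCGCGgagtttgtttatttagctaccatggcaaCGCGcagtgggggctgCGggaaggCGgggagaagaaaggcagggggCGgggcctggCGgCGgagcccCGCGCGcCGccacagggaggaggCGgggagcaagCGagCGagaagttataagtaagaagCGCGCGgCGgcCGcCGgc
The Cebpa window has 22 CG dinucleotides at 66.4% G and C, the Klf4 window 32 at 74%, and the Zeb2 window 9 at 49.6%. Over all 32841 windows of the table the median was 6 CG dinucleotides at 52.4% G and C, and 18.0% of windows had at least 20. The letters TGTGGT and TGCGGT, known as core-binding factor motifs, were searched on both strands, and 18.6% of all windows hold a match. The first-start windows of the 7 members held 0 matches, which says only that these letters are not in these 250 bases. Of the further listed start sites, the second of Irf8 had 1 match in its window (TGCGGT on the opposite strand), and those of Zeb2 had 0.

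A gene is written as changed where its adjusted p was under 0.05 in 1 limma fit of all 12 libraries on log2(scaled count + 1), with Benjamini-Hochberg adjustment over the 10023 genes tested. All 9 members passed the filter of a value above 0 in at least 3 libraries. In KO against wt at 1.5M, 5 of the 9 members rose (Cebpa, Irf8, Zeb2, Id2 and Klf4) and none fell, while 3.24% of all tested genes rose and 2.04% fell. In KO against wt at P5, 2 members rose (Zeb2 and Maf) and none fell, with 1.15% of all genes higher and 0.649% lower. The members' median log2 fold change was 1.68 at 1.5M, beside 0.09 over all genes tested, and 0.93 at P5, beside -0.01 over all genes. At 1.5M the KO and wt libraries did not overlap for 7 members, all higher in KO, as for 21.1% of all genes. At P5 they did not overlap for 6 members, 4 of them higher in KO and 2 lower, as for 12.2% of all genes. Cebpa, Zeb2, Klf4 and Maf, 4 of the 9, were higher in every KO library at both ages, as for 1.63% of all genes. The P5 calls depended on how genes were filtered when each comparison was fitted on its own 6 libraries. With genes filtered over those 6 libraries, 2 members and 123 genes passed at P5, and with genes filtered over all 12, an alternative added after the data were seen, 0 members and 0 genes. At 1.5M the fits gave 4 members (Cebpa, Zeb2, Klf4 and Maf) and 652 genes, and 3 members (Cebpa, Zeb2 and Maf) and 630 genes.

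**Figure D1:**
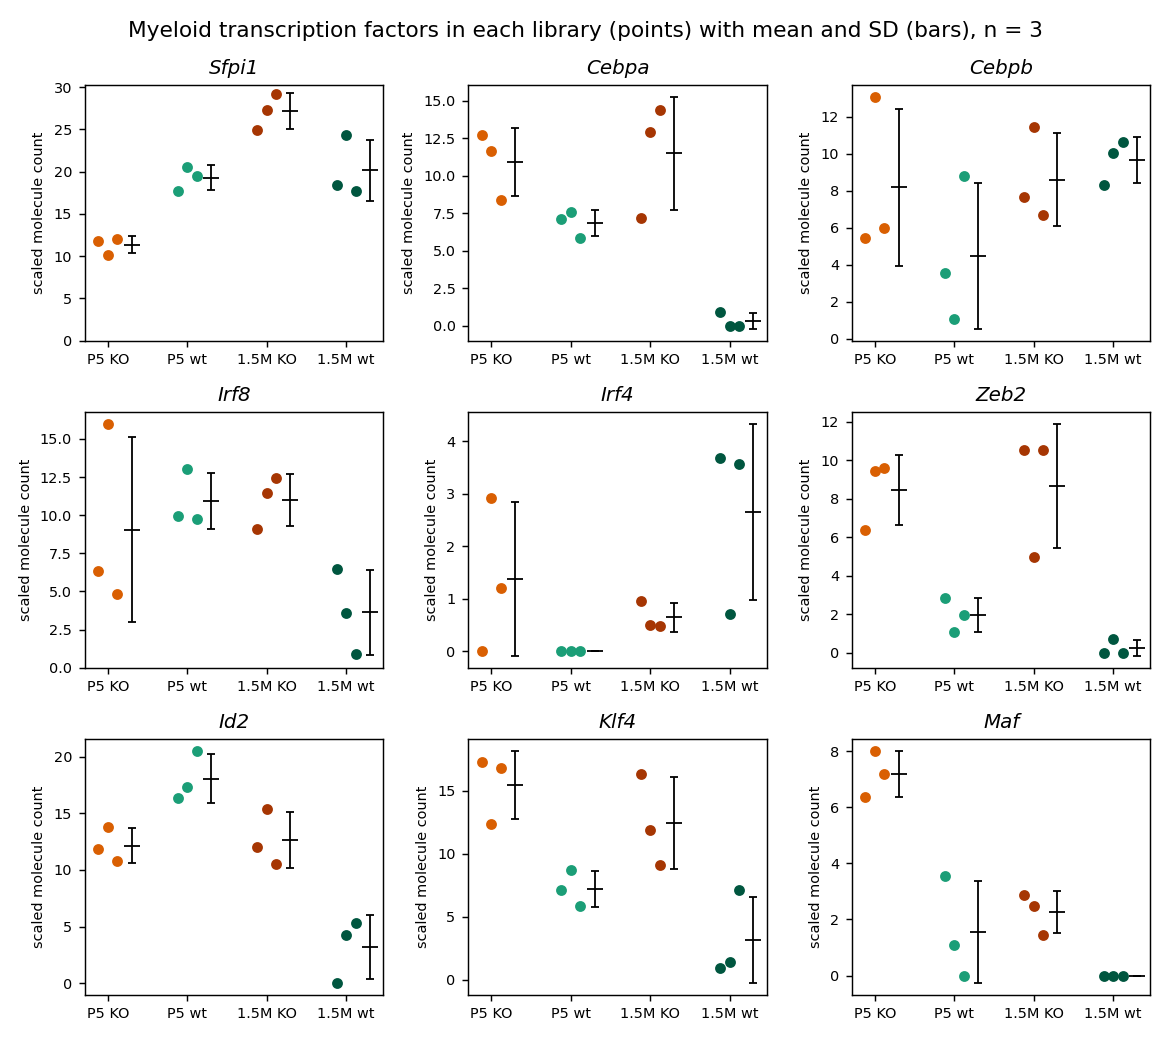
Scaled molecule count of each factor in every library, by group (P5 KO, P5 wt, 1.5M KO, 1.5M wt). Points are libraries, dashes are means of 3, and bars show the SD. The mean of 1.5M wt is the lowest of the 4 groups for 6 of the 9 factors, as for 35.1% of all genes tested, with Cebpa at 0.307, Zeb2 at 0.238 and Maf at 0.

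Sfpi1 had 11.8, 10.2 and 12 scaled counts in the P5 KO libraries, against 17.8, 20.6 and 19.5 in P5 wt. All 3 KO libraries were below all wt libraries, at 11.3 ± 0.998 against 19.3 ± 1.44 (SD, n = 3 each), yet the difference did not pass the test (log2 fold change -0.72, SE 0.23, adjusted p = 0.134). At 1.5M it had 24.9, 27.3 and 29.2 in KO against 18.4, 24.3 and 17.8 in wt. Here every KO library was above every wt library, with a log2 fold change of 0.42 and an adjusted p of 0.426. The knockout effect at 1.5M minus that at P5 was 1.14 on the log2 scale (95% interval 0.47 to 1.81, adjusted p = 0.0722). Within KO, Sfpi1 rose with age, to a mean of 27.2 at 1.5M against 11.3 at P5, which is 2.40 times as high (log2 fold change 1.19, SE 0.23, adjusted p = 0.00316). It was the 1 member of 9 that changed between the ages in KO, where 1.72% of all genes rose and 1.43% fell, and it passed without any single library of that comparison (Maf, lower at 1.5M, also passed with a pseudocount of 10 and with voom). In wt it differed by a log2 fold change of 0.05 between the ages (95% interval -0.42 to 0.52).

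Cebpa was nearly absent from adult wild-type cells. It had 12.7, 11.6 and 8.40 scaled counts in P5 KO against 7.10, 7.59 and 5.86 in P5 wt, and 7.19, 12.9 and 14.4 in 1.5M KO against 0.921, 0 and 0 in 1.5M wt. The gene was thus present in every library of 3 groups, and the 1.5M wt group held 1 molecule in all, against 71 molecules in 1.5M KO. At P5 all KO libraries were higher, but the log2 fold change of 0.59 had an adjusted p of 0.552. At 1.5M Cebpa rose in KO (log2 fold change 3.28, SE 0.37, adjusted p = 2.27e-06). With age it fell in wt by 2.65 on the log2 scale (adjusted p = 5.96e-05), whereas KO differed by 0.04 between the ages (95% interval -0.73 to 0.80). The knockout effect was larger at 1.5M than at P5 by 2.69 on the log2 scale (SE 0.52, adjusted p = 0.00512), 1 of the 2 members, with Id2, for which this difference passed the test, while it was positive for 1.32% of all genes and negative for 0.678%. These 3 Cebpa calls held without any single library, and the difference between effects was lost with a pseudocount of 10 (adjusted p = 0.0657). The counting of strand is not given in the sources used here. An antisense transcript, Gm45091, overlaps the Cebpa gene but does not cover its annotated 3-prime end. Only reads from the stretch that both share could not be told apart, and their number was not tested.

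Cebpb, the related factor induced in inflammation and in macrophages, did not follow Cebpa. Its values were 5.45, 13.1 and 6.0 in P5 KO against 3.55, 1.08 and 8.79 in P5 wt, and 7.67, 11.4 and 6.71 in 1.5M KO against 8.29, 10.02 and 10.7 in 1.5M wt. The groups overlapped at both ages. The log2 fold change of KO over wt was 0.93 at P5 (95% interval 0.02 to 1.83, adjusted p = 0.378) and -0.17 at 1.5M (95% interval -1.08 to 0.73, adjusted p = 0.934). In wt, 1.5M against P5, the log2 fold change was 1.23 with an adjusted p of 0.116; without the third P5 wt library it was 1.78 with an adjusted p of 0.0159. The antisense gene Tmem189 overlaps Cebpb, as Zeb2os does Zeb2 and Gm15655 does Maf, and none of them covers the annotated 3-prime end of the member.

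Cebpa's share of the molecules of Cebpa and Cebpb together, a measure chosen after the values were seen and given without a test, was 56.1% in P5 KO (37 of 66, Wilson 95% interval 44.1% to 67.4%) and 60.5% in P5 wt (23 of 38, 44.7% to 74.4%). At 1.5M it was 57.3% in KO (71 of 124, 48.5% to 65.6%) and 2.78% in wt (1 of 36, 0.492% to 14.2%). The 2 P5 groups and 1.5M KO thus had like shares, and 1.5M wt stood apart. These intervals cover counting error only.

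Irf8 had 6.36, 16.0 and 4.80 scaled counts in P5 KO against 9.95, 13 and 9.77 in P5 wt, groups that overlapped (log2 fold change -0.40, 95% interval -1.29 to 0.50). At 1.5M it had 9.11, 11.4 and 12.5 in KO against 6.45, 3.58 and 0.888 in wt. Every 1.5M KO library was higher, and Irf8 rose 3.02 times by the ratio of means (log2 fold change 1.57, SE 0.43, adjusted p = 0.0324). In wt it fell with age, to a mean of 3.64 at 1.5M against 10.9 at P5 (log2 fold change -1.56, adjusted p = 0.0352), 1 of the 3 members that fell with age in wt, with Cebpa and Id2, where 2.84% of all genes fell and 2.36% rose. Both calls depended on single libraries and on the processing. With a pseudocount of 0.1, with a pseudocount of 10 and with libraries thinned to equal depth, the 1.5M call was lost (adjusted p of 0.0683, 0.0545 and 0.115) and so was the call with age (0.0724, 0.0593 and 0.1245). The 1.5M call was also lost in the fit of its own 6 libraries (0.0661), and the call with age with median-of-ratios scaling (0.0825). The 1.5M call was lost without the second (adjusted p = 0.0579) or the third (0.220) wt library, or the second (0.0781) or the third (0.101) KO library. The call with age was lost without the first (0.0816), second (0.109) or the third (0.0684) P5 wt library, or the second (0.0613) or the third (0.201) 1.5M wt library. Another annotated transcript, Gm20388, covers the 3-prime end of Irf8 on the same strand.

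Irf4 was near the limit of detection. It had 0, 2.91 and 1.20 scaled counts in P5 KO against 0 in all 3 P5 wt libraries, and 0.959, 0.497 and 0.479 in 1.5M KO against 3.69, 0.715 and 3.55 in 1.5M wt. These rest on 5, 0, 4 and 9 molecules over the 3 libraries of P5 KO, P5 wt, 1.5M KO and 1.5M wt. In wt every 1.5M library was above every P5 library, at least 2.96-fold higher on average, with an adjusted p of 0.0645; it was 0.0331 without the second 1.5M wt library, 0.0351 with quantile normalization and 0.00996 with voom. The KO effect had a log2 fold change of 1.03 at P5 (adjusted p = 0.437) and -1.03 at 1.5M (adjusted p = 0.401). Irf4's share of the molecules of Irf4 and Irf8, also chosen after the values were seen, was 5.56% in 1.5M KO (4 of 72, Wilson 95% interval 2.18% to 13.4%) and 40.9% in 1.5M wt (9 of 22, 23.3% to 61.3%), but single 1.5M wt libraries ranged between 16.7% and 80%. At P5 it was 13.2% in KO (5 of 38) and 0% in wt (0 of 36, which allows up to 9.64%).

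Zeb2 was higher in KO at both ages. It had 6.36, 9.45 and 9.60 scaled counts in P5 KO against 2.84, 1.08 and 1.95 in P5 wt, and the ratio of means was 4.32. At 1.5M it had 10.5, 4.97 and 10.5 in KO against 0, 0.715 and 0 in wt, or 54 molecules against 1. All KO libraries were above all wt libraries at each age. Zeb2 rose in KO at P5 (log2 fold change 1.70, SE 0.42, adjusted p = 0.0387) and at 1.5M (log2 fold change 2.95, SE 0.42, adjusted p = 4.95e-05). The 1.5M call held without any single library. The P5 call was lost without the second (adjusted p = 0.138) or the third (0.103) wt library, or without the first (0.0624), second (0.113) or the third (0.115) KO library. It was also lost with a pseudocount of 0.1 (0.297), no filter (0.0507), voom (0.102), thinning to equal depth (0.1645) and a replicate block (0.0518). The 2 effects differed by 1.25 on the log2 scale (95% interval 0.03 to 2.47, adjusted p = 0.363). Within KO the ages differed by -0.01 (95% interval -0.88 to 0.85), and in wt the change with age was -1.26 with an adjusted p of 0.0877.

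Id2 moved in another way. It had 11.8, 13.8 and 10.8 scaled counts in P5 KO against 16.3, 17.4 and 20.5 in P5 wt, so all P5 KO libraries were lower (log2 fold change -0.54, adjusted p = 0.698). At 1.5M it had 12, 15.4 and 10.5 in KO against 0, 4.29 and 5.33 in wt, with all KO libraries higher, and Id2 rose 3.94 times (log2 fold change 2.07, SE 0.46, adjusted p = 0.0061). In wt it fell with age, to a mean of 3.21 at 1.5M against 18.1 at P5, by 2.56 on the log2 scale (adjusted p = 0.000935), while KO differed by 0.05 between the ages (95% interval -0.90 to 0.99). The call at 1.5M and the call with age held without any single library, but without the first 1.5M wt library, where Id2 was at 0, the log2 fold changes were 1.22 and -1.71. The 1.5M call was lost with a pseudocount of 0.1 (adjusted p = 0.0748) and in the fit of its own 6 libraries (0.0729). The difference between the knockout effects was 2.60 on the log2 scale (SE 0.64, adjusted p = 0.0334). That call was lost in 7 of the 12 fits that left out 1 library, namely without any of the P5 libraries, KO or wt, or without the second 1.5M KO library, with adjusted p up to 0.0787.

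Zeb2's share of the molecules of Zeb2 and Id2 together, again chosen after the values were seen and given as a description, was 40.6% in P5 KO (28 of 69, Wilson 95% interval 29.8% to 52.4%) and 10.4% in P5 wt (7 of 67, 5.15% to 20.03%). At 1.5M it was 40.9% in KO (54 of 132, 32.9% to 49.4%) and 7.69% in wt (1 of 13, 1.37% to 33.3%). Single libraries ranged between 24.4% and 50% in the KO groups and between 0% and 14.8% in the wt groups, and 1 of the 1.5M wt libraries had neither molecule. The KO and wt libraries thus did not overlap at either age in this share, as they did not for Zeb2 alone. At 1.5M the wt share rests on 13 molecules, and how many gene pairs at large show no overlap was not counted.

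**Figure D2:**
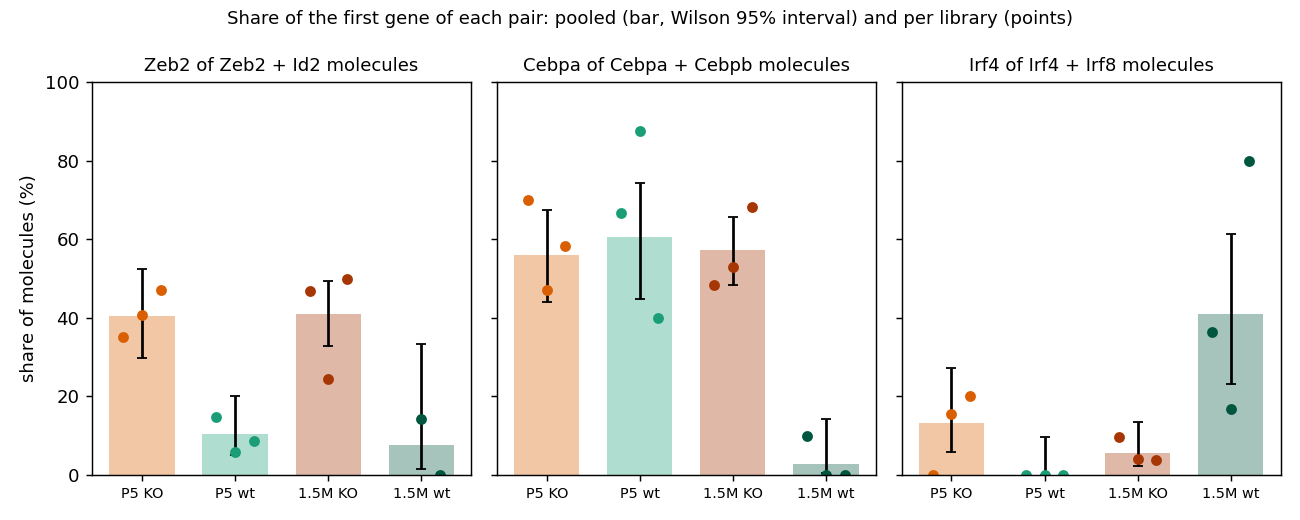
Share of molecules, in percent, that belong to the first gene of each pair (Zeb2 of Zeb2 and Id2, Cebpa of Cebpa and Cebpb, Irf4 of Irf4 and Irf8), by group; points are libraries and the marks with bars are the pooled shares with Wilson 95% intervals. The Zeb2 share is 40.6% in P5 KO and 40.9% in 1.5M KO, against 10.4% in P5 wt and 7.69% in 1.5M wt.

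Klf4 had 17.3, 12.4 and 16.8 scaled counts in P5 KO against 7.10, 8.68 and 5.86 in P5 wt, and 16.3, 11.9 and 9.10 in 1.5M KO against 0.921, 1.43 and 7.11 in 1.5M wt. Every KO library was above every wt library of its age, the third 1.5M wt library being the closest to KO. At 1.5M Klf4 rose 3.95 times (log2 fold change 1.97, SE 0.41, adjusted p = 0.00374), a call that held without any single library and was lost with libraries thinned to equal depth (adjusted p = 0.0512). The third 1.5M wt library held most of the wt molecules, and without it the log2 fold change was 2.60. At P5 the log2 fold change was 1.004 (95% interval 0.15 to 1.86, adjusted p = 0.294). In wt the change with age was -1.28 (adjusted p = 0.0771); without the third 1.5M wt library it was -1.91, with an adjusted p of 0.00186.

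Maf had 6.36, 8.0 and 7.20 scaled counts in P5 KO against 3.55, 1.08 and 0 in P5 wt, and 2.88, 2.49 and 1.44 in 1.5M KO against 0 in all 3 libraries of 1.5M wt. It was higher in every KO library at each age. At P5 it rose 4.65 times (log2 fold change 1.95, SE 0.50, adjusted p = 0.0450), but the call was lost without the second (adjusted p = 0.110) or the third (0.212) wt library, or without the first (0.116), second (0.127) or the third (0.115) KO library. The P5 call of Maf was also lost with a pseudocount of 0.1 (0.251), no filter (0.0549) and thinning to equal depth (0.1575). At 1.5M it was at least 2.73-fold higher in KO, measured against 3 molecules over the wt group, and its adjusted p of 0.0510 did not pass (0.0395 with median-of-ratios scaling). The 2 effects differed by -0.27 on the log2 scale (95% interval -1.73 to 1.19). Within KO it was lower in every 1.5M library than in every P5 library, with an adjusted p of 0.179.

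**Figure D3:**
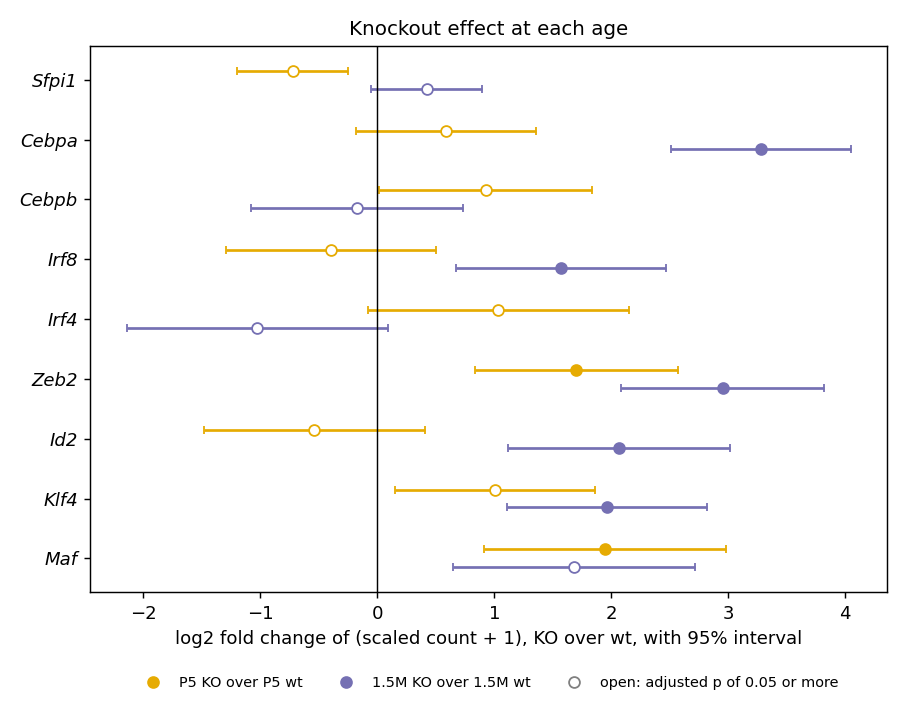
Log2 fold change of (scaled count + 1) with its 95% interval for KO over wt, at P5 and at 1.5M, from the limma fit; filled points have an adjusted p under 0.05. At 1.5M 5 factors are filled, with Cebpa at 3.28 and Zeb2 at 2.95 the highest; at P5 Zeb2 (1.70) and Maf (1.95) are filled.

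**Figure D4:**
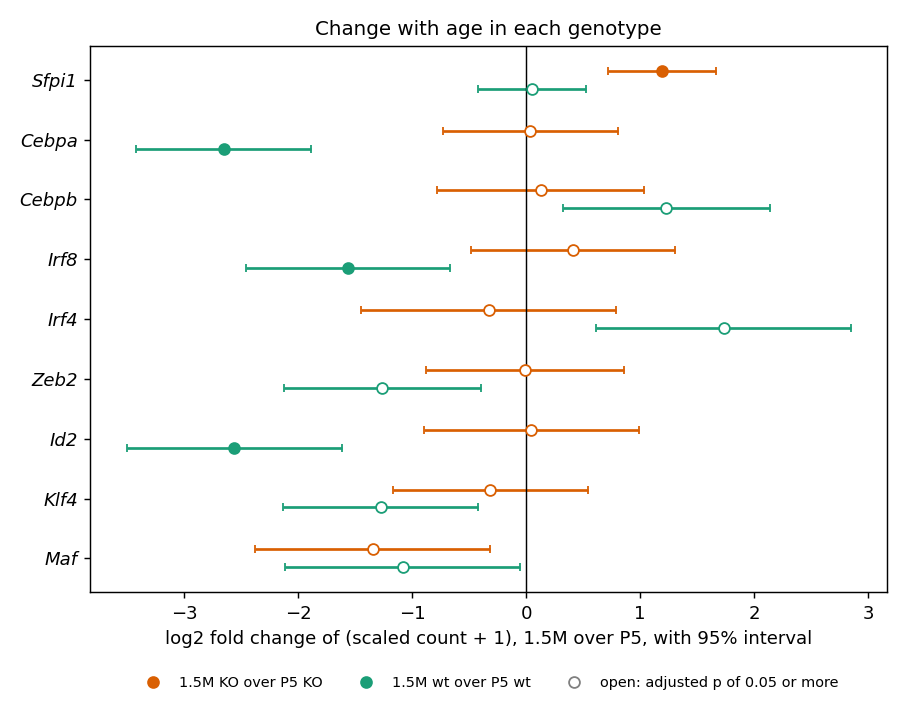
Log2 fold change of (scaled count + 1) with its 95% interval for 1.5M over P5 within KO and within wt; filled points have an adjusted p under 0.05. In wt Cebpa (-2.65), Irf8 (-1.56) and Id2 (-2.56) are filled, and in KO Sfpi1 (1.19).

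Side by side, the age comparisons gave a median log2 fold change of 0.04 over the members in KO, beside -0.06 over all genes, and of -1.26 in wt, beside -0.22 over all genes. The 1.5M and P5 libraries did not overlap for 2 members in KO (18.1% of all genes) and for 5 in wt (19.2% of all genes). For Cebpa, Cebpb, Zeb2 and Id2, the means of 1.5M KO (11.5, 8.60, 8.69 and 12.6) lay within 1 scaled count of those of P5 KO (10.9, 8.18, 8.47 and 12.1). So did those of Irf4, near the limit of detection (0.645 and 1.37). The share of all genes this close was not counted. In the order of group means, all 4 groups of Cebpb and of Irf8 overlapped with their neighbours, while the lowest group stood clear of the next for 5 members, as for 7.53% of all genes: Sfpi1 (P5 KO), Cebpa, Zeb2 and Id2 (1.5M wt each) and Irf4 (P5 wt).

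Markers of other cell types moved with the knockout at P5. The 14 keratinocyte genes summed to 234 to 737 scaled counts in P5 KO against 72.3 to 104 in P5 wt, the 9 neutrophil genes in the table to 47.0 to 249 against 3.02 to 10.3, and the 7 erythroid genes to 1.99 to 267 against 0 to 2.84. Their part in the P5 results of Klf4, Cebpa and the other members, several of which keratinocytes or neutrophils are also known to express, was not tested. Within P5 KO, the first library had the highest keratinocyte sum and the third the highest neutrophil sum. Klf4 and Cebpa were highest in the first, and Zeb2, Maf, Cebpb and Irf4 lowest there; Sfpi1 and Zeb2 were highest in the third, and Cebpa, Irf8 and Id2 lowest there. At 1.5M the keratinocyte sums were 10.5 to 23.5 in KO and 14.0 to 44.2 in wt, the neutrophil sums 0.249 to 0.959 in KO and 17.8 to 25.6 in wt, and the erythroid sums 0 in both. Of the 9 neutrophil genes, 7 were at 0 in 1.5M wt, and Mmp9 made up most of the sum there (16.0 to 24.9). The 12 gate and Langerhans cell genes summed to 1040 to 1351 in P5 KO against 1645 to 1726 in P5 wt, and to 2381 to 2771 in 1.5M KO against 4177 to 4702 in 1.5M wt. T cell markers reached at most 2.72 in P5 KO and 0 elsewhere, and B cell markers at most 16.8 in P5 KO, 2.93 in P5 wt, 0.497 in 1.5M KO and 0 in 1.5M wt. Fibroblast genes reached at most 8.17 in P5 KO and 9.76 in P5 wt and were at 0 at 1.5M, and mast cell and melanocyte genes reached at most 1.42 in any library.

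**Figure D5:**
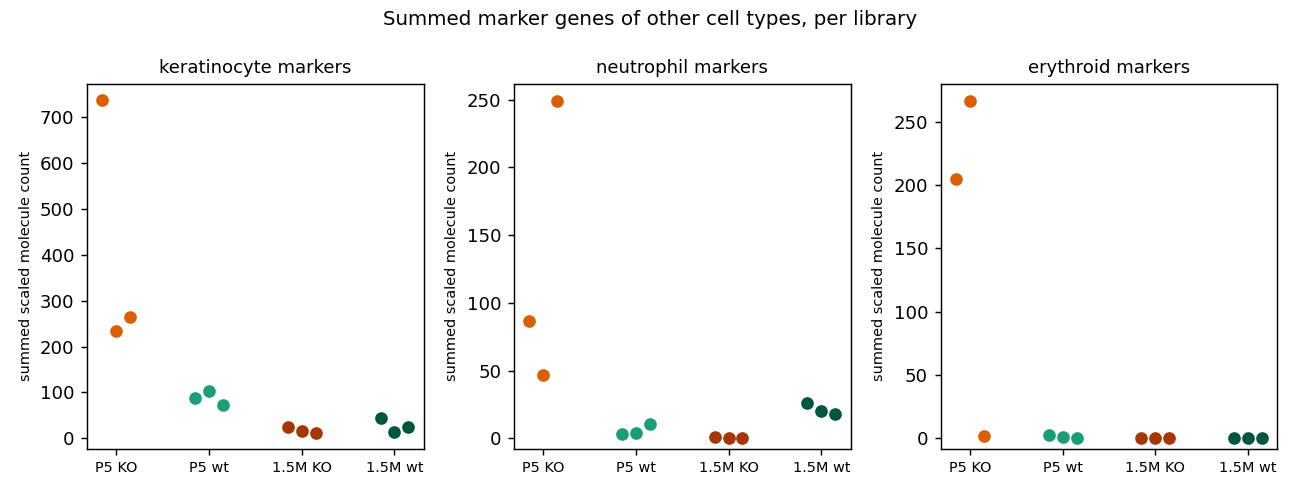
Summed scaled counts of keratinocyte, neutrophil and erythroid marker genes in each library, by group. P5 KO is the highest group in all 3 panels, with keratinocyte sums of 234 to 737 against 72.3 to 104 in P5 wt, and the third of its libraries has an erythroid sum of 1.99.

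Of 38 relatives of the 9 factors, 24 were tested. In 1.5M KO against 1.5M wt, 4 rose and 3 fell, with a median log2 fold change of 0.26. Of all genes tested, 3.24% rose and 2.04% fell there, with a median of 0.09. Klf6 rose to 26.0 ± 3.66 scaled counts in 1.5M KO against 8.05 ± 0.217 in 1.5M wt (SD, n = 3 each; log2 fold change 1.57, adjusted p = 0.00465). Klf2 (log2 fold change 2.15) and Irf1 (1.70) also rose, and Zeb1 (-1.91), the paralogue of Zeb2, Klf7 (-1.68) and Maff (-1.48, named after its value was seen) fell. Zeb1 had 0.485 ± 0.479 scaled counts in 1.5M KO against 4.53 ± 1.67 in 1.5M wt, so that the 2 Zeb genes changed in opposite directions. The calls of Klf2, Zeb1, Irf1 and Klf7 were lost when single libraries were left out: Klf2 without the first wt or the first or the third KO library (adjusted p up to 0.0910), Zeb1 without the first wt or the first or second KO library (up to 0.145), Irf1 without any of the 6 (up to 0.166), and Klf7 without the second or the third wt or any KO library (up to 0.144).

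At P5, 2 relatives rose in KO against wt, Klf2 (log2 fold change 2.64, adjusted p = 0.0126) and Klf6 (1.36, adjusted p = 0.0410), and none fell, while 1.15% of all genes rose and 0.649% fell. Both calls were lost without single libraries, Klf2 without the second or the third wt or the first or the third KO library (adjusted p up to 0.0996) and Klf6 without the second or the third wt or the first or second KO library (up to 0.208). In wt, Maff (log2 fold change 3.35, adjusted p = 1.06e-05) and Klf7 (2.39, adjusted p = 0.00198) were higher at 1.5M than at P5. Zeb1 was higher too (1.84) and Irf9 lower (-1.64), but these calls were lost without single libraries. Zeb1 lost it without the first or second P5 wt or any 1.5M wt library (adjusted p up to 0.119), and Irf9 without any of the 6 (up to 0.137).

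Of 26 other factors of myeloid and dendritic cells, 22 were tested. None changed in KO against wt at P5, and at 1.5M 1 rose and 1 fell, where 3.24% of all genes rose and 2.04% fell. Runx1, a DNA-binding partner of the core-binding factor β subunit, had 12.3 ± 2.78 scaled counts in 1.5M KO against 3.92 ± 1.46 in 1.5M wt (SD, n = 3 each; log2 fold change 1.45, adjusted p = 0.0389), and this was lost without the second or the third wt library or any KO library (adjusted p up to 0.165). Cbfb itself fell (log2 fold change -2.05, adjusted p = 0.00132). Runx3, the Runx factor needed for Langerhans cells, was higher at 1.5M than at P5 in KO (24.7 ± 7.31 against 7.11 ± 2.77, log2 fold change 1.68, adjusted p = 0.00478). This call was lost with thinning to equal depth and in the own-library fit with genes filtered over all 12 (adjusted p up to 0.0765). Every 1.5M wt library was also above every P5 wt library (15.7 ± 5.04 against 7.31 ± 2.75), a difference that did not pass. In wt, Nr4a1 was higher (log2 fold change 2.18, adjusted p = 6.87e-06) and Tcf4, an E protein, lower (-2.21, adjusted p = 0.0170) at 1.5M than at P5, and the Tcf4 call was lost without the first or second P5 wt or the second or the third 1.5M wt library (adjusted p up to 0.0834).

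Genes known to depend on the members were counted from lists compiled with earlier results of these data known. Some genes, among them Cybb, Lyz2 and Il10, are in 2 lists and count in each. Of all genes tested, 3.24% rose and 2.04% fell in KO at 1.5M, and 1.15% and 0.649% at P5. With age, 2.36% rose and 2.84% fell in wt, and 1.72% and 1.43% in KO. Of 17 PU.1-dependent genes, all tested and Sfpi1 itself among them, 5 rose and 1 fell in 1.5M KO against 1.5M wt, with a median log2 fold change of 1.04. Cybb, an NADPH oxidase subunit, had 52.3 to 57.7 scaled counts in 1.5M KO and 0 in every 1.5M wt library, at least 66.9-fold higher, and Cx3cr1, the fractalkine receptor, 15.3 to 23.4 against 0. Cybb had a log2 fold change of 5.82 (adjusted p = 1.81e-12) and Cx3cr1 one of 4.36 (adjusted p = 4.31e-08). Lyz2 (log2 fold change 2.23), which encodes lysozyme M, Fcer1g (1.74), the Fc receptor γ chain, and Ptprc (1.03), which encodes CD45, rose too, and the receptor subunit Csf2rb fell (log2 fold change -1.37, adjusted p = 0.00450). The Ptprc call was lost without the second wt or the first or second KO library (adjusted p up to 0.0898). At P5, 3 rose and 1 fell in KO, with a median of 0.03. Lyz2 rose most (log2 fold change 2.75, adjusted p = 0.00428). The other calls at P5 were Fcgr1 (2.22), Cx3cr1 (1.79) and Tyrobp (-0.90), and each depended on single libraries. Fcgr1 did not pass without the second or the third wt or any KO library (adjusted p up to 0.109), Cx3cr1 without the third wt or the second or the third KO library (up to 0.0859), and Tyrobp without any wt or the first or the third KO library (up to 0.149). With age in wt none rose and 4 fell: Cybb (log2 fold change -3.99, adjusted p = 1.75e-09), and Cx3cr1 (-1.53), Fcer1g (-0.98) and Tyrobp (-0.94). Of these, Cx3cr1 did not pass without the first or the second P5 wt library (adjusted p up to 0.0784), Fcer1g without the first or the third (up to 0.0781), and Tyrobp without the second P5 wt or the first 1.5M wt library (up to 0.0754). With age in KO, 4 of the list rose and none fell: Sfpi1 itself, Cd68 (1.61), Ptprc (1.15) and Csf1r (0.82). Cd68 did not pass without the first or the third P5 KO or the second or the third 1.5M KO library (adjusted p up to 0.149), Ptprc without the second 1.5M KO library (0.0715), and Csf1r without the first or second P5 KO or the second or the third 1.5M KO library (up to 0.167).

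Of 17 C/EBP-dependent genes, 9 were tested, and 6 of the 17 are also in the neutrophil list. At P5, 5 rose in KO (S100a9, S100a8, Cxcl2, Lyz2 and Cd14) and none fell. S100a8 and S100a9, the calprotectin subunits that neutrophils hold in large amounts, had log2 fold changes of 4.76 and 4.89. The neutrophil sums were 47.0 to 249 in P5 KO against 3.02 to 10.3 in P5 wt. Both genes are part of those sums, with means of 52.4 and 51.6 scaled counts in P5 KO, so the sums are no separate measure. At 1.5M, 3 rose in KO (Cd14, Lyz2 and Il10) and none fell, with S100a8 at 0 in every library. Il10 had 9 molecules over 1.5M KO and 0 in every library of the other groups. It thus passed the filter only through the group where it is high. Its call with age in KO was lost in the fits of its own 6 libraries, filtered either way (adjusted p up to 0.101). Cd14, the lipopolysaccharide co-receptor, had 34.1 ± 6.08 scaled counts in P5 KO against 8.12 ± 4.03 in P5 wt, and 60.9 ± 10.4 in 1.5M KO against 1.98 ± 0.629 in 1.5M wt (SD, n = 3 each). Its log2 fold change was 2.04 at P5 (adjusted p = 0.000812) and 4.38 at 1.5M (adjusted p = 1.47e-09). With age in wt, Il1b (log2 fold change 2.67) and Cxcl2 (2.11) rose and Cd14 (-1.53) fell. This Cd14 call was lost with a pseudocount of 10, voom, thinning and the own-library fit with genes filtered over all 12 (adjusted p up to 0.144). The Lyz2 call was lost at 1.5M with a pseudocount of 10 (0.0957). At P5 the Lyz2 call was lost with a pseudocount of 0.1 and in the same own-library fit (up to 0.230). With age in KO, Il1b (1.89) and Il10 (1.28) rose and S100a8 (-5.52) and S100a9 (-5.32) fell.

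Of 15 genes that depend on IRF4 or IRF8, 12 were tested. At 1.5M, 5 rose in KO and 2 fell: Ccl17, a chemokine of dendritic cells, had 14.4, 18.2 and 48.4 scaled counts in KO and 1 molecule in all of wt (log2 fold change 4.35, adjusted p = 3.46e-06), and Mgl2, a lectin of dermal dendritic cells, 18.1 ± 4.32 against 4.13 ± 1.29 (log2 fold change 1.90, adjusted p = 0.00133). Cst3, an IRF8-linked protease inhibitor gene, fell to 153 ± 5.04 against 517 ± 7.90 (log2 fold change -1.75, adjusted p = 2.43e-10), and at P5 it fell by 0.99 on the log2 scale (adjusted p = 3.28e-05), 1 of 2 of the list that fell there, with Cd74. The Cd74 call at P5 was lost without the second wt or the first KO library (adjusted p up to 0.0857). Of the others past the threshold at 1.5M, Naaa (log2 fold change 1.99) and Cybb rose, and Cd74 (-0.63) fell. With age in wt, Cd74 (1.10) and Cst3 (0.88) rose and Cybb, Mgl2 (-1.37) and Ctss (-0.88) fell, and the Mgl2 call was lost without the first or the third P5 wt or the first or second 1.5M wt library (adjusted p up to 0.106). With age in KO, Ccl17 (4.61) and Cd74 (0.97) rose. The Cd74 calls, and that of Cst3 with age in wt, were lost with quantile normalization (adjusted p of 0.0570 to 0.570).

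Of 11 macrophage genes associated with MAF, 9 were tested. At 1.5M, 6 rose in KO and none fell, with a median log2 fold change of 4.18. The complement genes C1qa, C1qb and C1qc had means of 113, 88.9 and 143 scaled counts in 1.5M KO against 5.40, 0.603 and 0.715 in 1.5M wt, and Mrc1, the mannose receptor, 17.8 against 0. The others that rose were Pf4 (log2 fold change 4.99) and Il10 (1.28). Il10 was above 0 only in 1.5M KO, so it passed the filter only through that group. At P5, 1 gene of the list rose, F13a1 (log2 fold change 1.61, adjusted p = 0.0428), and it did not pass without the first or the third wt or the first or second KO library (adjusted p up to 0.173). The 3 complement genes did not pass, with log2 fold changes of -0.61 for C1qa, -0.33 for C1qb and 0.02 for C1qc. C1qa averaged 19.96 scaled counts in P5 KO against 30.7 in P5 wt, where Maf itself averaged 7.19 against 1.55. C1qa was the 1 tested gene of the list that was lower in every P5 KO library than in every P5 wt library. F13a1 and Cd163 were higher in every P5 KO library. At P5 the KO and wt libraries did not overlap for 12.2% of all genes. Cd163 averaged 3.70 scaled counts in P5 KO against 0.474 in P5 wt and did not pass. Its lowest P5 KO library had 1.45 and its highest P5 wt library 1.42. Whether any of these genes follows Maf was not tested. With age in wt, C1qb (log2 fold change -4.17), C1qc (-4.05), Mrc1 (-3.23) and C1qa (-2.32) fell and none of the list rose. With age in KO, C1qc (2.55), C1qa (2.46), C1qb (2.02), Il10 (1.28) and Pf4 (2.77) rose and F13a1 (-1.96) fell, and the Pf4 call was lost without the second P5 KO library (adjusted p = 0.119).

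The genes whose levels were most like those of a member over the 12 libraries, by Pearson's r of log2(scaled count + 1) among 3192 candidates, are given as a description, since the libraries of a group share genotype, age and depth. For Cebpa they were Pld4 (r = 0.973), Unc93b1 (0.973) and Cotl1 (0.971). For Zeb2 they were Capg (0.959), Cd97 (0.954) and Lifr (0.944), and for Klf4 Mpeg1 (0.935), Mef2c (0.911) and Sema4a (0.907). Id2 was most like Emilin2 (0.966), Ncoa3 (0.936) and Snx17 (0.929), and Maf most like Lyz2 (0.968), Ccl9 (0.962) and Lamp1 (0.957). For Sfpi1 they were Cd63 (0.910), Cd72 (0.910) and Itgax (0.894), the last being the gene of CD11c. Irf8 was most like Rock2 (0.917), Hprt (0.896) and Abhd12 (0.896). The lowest values belonged to Cebpb, with H2-T23 (0.844), Becn1 (0.810) and Ier2 (0.797), and to Irf4, with Nab1 (0.844), Marveld2 (0.823) and Eif1 (0.818).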

How the data were processed

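Cells were lysed, ERCC spike-in RNA was added, and RNA was reverse transcribed with a barcoded oligo-dT primer and template switching, per the labels' protocols. TopHat2 and the build mm10 are named in the submitters' processing notes; the annotation, the counter, the use of strand and the scaling are not given there or elsewhere in the sources used here. From its values, the deposited signal per gene and library is the authors' molecule count scaled to 1 total (37092). Per library, 92.6% to 94.9% of values above 0 were whole multiples (tolerance 0.01) of 1 molecule, and all 108 member values were. Because not nearly all values were whole, no negative binomial test was run, and the branch of the plan for normalized values was used.

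Genes above 0 in at least 3 of 12 libraries (10023) were fitted on log2(scaled count + 1), a scale that understates the change of low genes, with limma 3.58.1 in R 4.3.3 (4 group means, mean-variance trend, two-sided tests, Benjamini-Hochberg adjustment per comparison, threshold 0.05). There were 5 comparisons: the knockout effect at either age, the age effect in either genotype, and the difference of knockout effects. The fit was tested on simulated data. The members and all gene lists were chosen with earlier results of these data known. All 9 members are named; of each other list, the genes that changed are, up to 6 per list and comparison by size of change. Of the relatives, 1 gene that is included in the counts is not reported here. Positions and overlaps are from GENCODE M21 for GRCm38 (the same assembly as mm10). Alternatives were other pseudocounts, no filter, median-of-ratios and quantile scaling, leaving out other cell types' genes, voom, thinning, own-library fits, a replicate block and leaving out each library.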

Additional observations from a re-analysis of the deposited data

Results flagged for a closer look

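The knockout effect differed between the ages for 2 members by the test of the difference itself (1.5M minus P5, log2 scale, limma with adjusted p under 0.05): Cebpa by 2.69 and Id2 by 2.60. The difference was positive for 1.32% of all genes and negative for 0.678%. The Cebpa call was lost with a pseudocount of 10 (adjusted p = 0.0657). The Id2 call was lost in 7 of the 12 fits that left out 1 library. It was also lost with a pseudocount of 0.1 (0.2205), median-of-ratios scaling (0.0512) and thinning to equal depth (0.1295). Sfpi1 was lower in every KO library at P5 and higher in every KO library at 1.5M, with a difference of 1.14 whose adjusted p of 0.0722 did not pass.

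Among genes known to depend on the members, the difference passed for C1qc (6.60), C1qb (6.20), C1qa (4.79), Pf4 (4.28) and Mrc1 (3.93) of the MAF list. It passed for Cybb (4.96), Cx3cr1 (2.56), Tyrobp (1.41) and Fcer1g (1.40) of the PU.1 list, and for Ccl17 (4.68), Mgl2 (2.57), Ctss (0.985) and Cst3 (-0.761) of the IRF list. Of the C/EBP list, Cd14 differed by 2.34, and S100a9 (-4.89), S100a8 (-4.76) and Cxcl2 (-3.45) had the larger effect at P5. Klf7, a relative of Klf4, differed by -2.63. Without single libraries, the calls of Klf7, Fcer1g and Ctss were lost in 10, 8 and 7 of 12 fits, with adjusted p up to 0.0993, 0.0937 and 0.0972, and that of Pf4 was lost without the first P5 wt library (adjusted p = 0.0522). Thinning to equal depth lost the calls of Klf7, Mgl2, Tyrobp and Cd14 (adjusted p of 0.119, 0.0683, 0.0779 and 0.0786), and those of Fcer1g, Ctss and Pf4. The call of Cst3 was lost with quantile normalization (0.577). Those of S100a8 and S100a9 were lost with a pseudocount of 0.1 (0.0996 and 0.0662). The calls of S100a8, S100a9 and Cxcl2 stand beside neutrophil sums of 47.0 to 249 scaled counts in P5 KO against 3.02 to 10.3 in P5 wt. S100a8 and S100a9 are part of these sums, with means of 52.4 and 51.6 in P5 KO, so for them the sums are no separate measure.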

How the results depend on the processing

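The alternatives moved the P5 results most. For KO against wt at P5, 2 members and 180 genes passed; with a pseudocount of 0.1 these were 0 and 92, with no filter 0 and 118, with thinning to equal depth 0 and 82, with voom 1 member, with own libraries 2 and 123, and with own libraries and genes filtered over all 12 (added after seeing the data) 0 and 0. For KO against wt at 1.5M, 5 members and 529 genes passed, against 866 genes with voom, 4 members and 652 genes with own libraries, and 3 members and 630 genes in the added own-library fit. For 1.5M against P5 in wt, 3 members and 522 genes passed, against 274.5 genes (a median over 10 draws) with thinning, 3 members and 415 genes with own libraries, and 1 member and 111 genes in the added fit. In KO, 1 member and 315 genes passed, against 2 members with a pseudocount of 10, 2 members and 899 genes with voom, 197 genes with thinning, 1 member and 237 genes with own libraries, and 86 genes in the added fit. For the difference of effects, 2 members and 200 genes passed, against 1 member and 133 genes with a pseudocount of 0.1, 1 member with a pseudocount of 10 and with median-of-ratios scaling, 1 member and 100.5 genes with thinning, and 348 genes with voom. The causes were not tested.

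Leaving out 1 library gave 72 to 123 genes and 0 to 2 members for KO against wt at P5, 359 to 386 and 4 to 5 at 1.5M, 346 to 389 and 2 to 3 for age in wt, 169 to 246 and 1 in each fit for age in KO, and 141 to 193 and 1 to 3 for the difference of effects. With a replicate block 1 member and 147 genes passed at P5, where Zeb2 was lost (adjusted p = 0.0518), and the block changed no other member's call. Deviations of same-numbered libraries correlated at -0.042 to 0.038, so no sign of pairing by number was seen. With 3 libraries per group and few molecules, this cannot exclude a shared batch or day.

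Signs turned only in values that had not passed. These were Sfpi1 with age in wt (-0.15 with quantile normalization), Cebpa (-0.027) and Id2 (-0.0042) with age in KO under voom, Zeb2 with age in KO (0.0063 with a pseudocount of 10, 0.0857 with median-of-ratios scaling, 0.0468 with quantile normalization), and the difference of effects of Maf (1.25 with a pseudocount of 0.1, 0.18 with voom). Leaving out 1 library gave ranges that cross 0 for the same kind of value: -0.086 to 0.13 for Sfpi1 with age in wt, -0.14 to 0.31 for Cebpa, -0.079 to 0.48 for Cebpb, -0.85 to 0.14 for Irf4, -0.18 to 0.31 for Zeb2 and -0.10 to 0.16 for Id2 with age in KO, and -0.82 to 0.28 for the difference of effects of Maf. The median of all genes in wt with age was -0.22, and -0.11 with median-of-ratios and -0.06 with quantile scaling, and 61.0% and 55.1% of calls were then higher at 1.5M, against 45.4%. Low molecule numbers limit Irf4 and Maf, and in 1.5M wt also Cebpa, Zeb2, Klf4, Id2 and Irf8, with 1 to 13 molecules each.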
